A study of Gallus gallus with 3 samples.

Results

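MCM5, DNMT1 and CHAF1B are 3 genes whose proteins work where DNA is being copied, and their transcripts are described here in DT40 cells, a line grown from a chicken B cell lymphoma. They were picked among DNA replication and chromatin genes because each was at least 2-fold lower on both peptide arrays than on the control array. With 37926 probes left unnamed, they are 3 of the 3827 genes that could be given a symbol on the array, and each has 1 named probe. Their ratios to the control are therefore a description of what was picked and support nothing further.

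The study exposed DT40 cells to peptides taken from the avian bursa of Fabricius, where B cells mature. One culture was left untreated (0 µg/ml), one received BP5 at 0.02 µg/ml and one BSP-II at 2 µg/ml, and all were harvested after 4 h. The medium of every group was RPMI with fetal bovine and avian serum, and RNA was read on 1-colour (Cy3) Agilent chicken arrays. Each group is 1 array (replicate 1), so no difference below has a replicate check, no p-value can be given, and the number of arrays limits the precision. The submitters' design text mentions repeated experiments and several cell populations, and the sources used here do not say how these relate to the arrays.

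At a replication fork a ring of related MCM proteins, MCM2 to MCM7, unwinds the parental DNA, and MCM5 is one subunit of that ring. Behind the fork, chromatin assembly factor 1 (CAF-1) places new histones on the daughter strands, and CHAF1B is its middle subunit. DNMT1 copies the methylation of the parental strand onto the new strand and binds near the fork through the sliding clamp. In vertebrate cells transcripts of many such genes climb at the entry into S phase under E2F transcription factors, and DT40 is a fast-dividing line much used to study replication and repair. In a culture measured in bulk, fewer cells in S phase and less RNA per cell cannot be told apart.

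The arrays differed before any gene was considered. Of 42034 probes, 46.6% were well above background with the control RNA, 38.0% with BP5 and 39.6% with BSP-II. The 75th percentile of the signal was 254.8, 178.7 and 154.1 in the same order, and the median local background was 43.5, 54.0 and 54.5. All arrays lay on 1 slide, but scan 1 gave the control values and scan 2 those of both peptides, and scan cannot be told apart from peptide in a ratio to the control. The part of these array differences in the ratios below was not tested.

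The B cell label was set against markers. Of 16 B cell markers with a probe, 11 were well above background on the control array, as were 2794 of all 3827 genes. Nothing is read from this count, which is near the share of all genes. The 11 were JCHAIN, IRF4, POU2AF1, IKZF1, SYK, BTK, BCL6, BCL11A, CXCR4, LY86 and LYN. LYN read 31.7, against 30.2 for the dimmest probe called well above background, and was not detected on either peptide array. PAX5, EBF1, CD79B, SPI1 and CD40 stayed below the detection call on every array, so several defining markers of the lineage gave no usable signal at these probes. On the same array 2 of 9 T cell markers and 4 of 7 macrophage and granulocyte markers were well above background. So were 2 of 2 erythroid and thrombocyte markers and 3 of 9 fibroblast, epithelial and endothelial markers. TAL1, of the erythroid and thrombocyte list, read 31.2, also close to the limit of 30.2, and was not detected on either peptide array. Signals divided by the 75th percentile of their array and summed over a list were 271.3, 331.8 and 338.9 for B cell markers on the control, BP5 and BSP-II arrays. The sums were 15.7, 13.4 and 17.7 for T cell markers, 15.1, 12.2 and 16.5 for macrophage and granulocyte markers, and 4.85, 5.92 and 6.04 for the fibroblast, epithelial and endothelial list. Single genes made up most of these sums. For B cell markers they were JCHAIN and IRF4 (signals of 42411 and 22415 on the control array). For T cell markers it was CD3D (3703), and for macrophage and granulocyte markers AVD (2963). The erythroid and thrombocyte sum, almost all of it the thrombocyte tubulin TUBB1, was 10.1, 5.12 and 6.39 and thus lower on both peptide arrays. Its part in the results was not tested.

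MCM5 had a bright spot on the control array and a spot near the limit of detection on both peptide arrays. The error that the scanner software gives for a spot, written ±, was 10.0% of the signal for each of the 3 genes on the control array. Over all detected probes its median was 10.2%, 10.4% and 10.3% on the control, BP5 and BSP-II arrays. It is thus nearly a fixed share of a bright signal and no spread between repeated measurements. The processed signal of MCM5, which the software had already freed of background, was 1138 ± 114.0 on the control array. With BP5 it was 49.3 ± 10.98, and with BSP-II 64.0 ± 9.73. The control value lay far above both peptide values, which overlapped each other within their spot errors. The dimmest probe called well above background read 30.2 for the control, 49.1 for BP5 and 36.7 for BSP-II, so MCM5 lay at 1.00 times that limit with BP5 and 1.75 times with BSP-II.

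After each array was scaled to its 75th percentile, MCM5 was 16.2-fold lower with BP5 (log2 ratio -4.02 ± 0.35) and 10.7-fold lower with BSP-II (-3.43 ± 0.26). It had the lowest ratio of the 2578 genes measured against the control with BP5 and of the 2615 measured with BSP-II. A gene that fell below the detection call on a peptide array has no ratio there and is not ranked. The unscaled MCM5 signals differed 23.1-fold and 17.8-fold, since scaling adds 0.51 and 0.73 to every log2 ratio of the BP5 and BSP-II array. A spot this close to background depends on how background is removed. The median pixel signal of the MCM5 spot before any subtraction was 1264, 149 and 176, which is 8.48-fold and 7.18-fold lower on the peptide arrays. None of 153 negative control spots reached the MCM5 spot on any array, although the brightest of them read 145.5 on the BP5 array. With normexp background correction, which is milder for dim spots and here adds an offset of 50 to every spot, the log2 ratios were -2.51 and -2.17.

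DNMT1, the enzyme that maintains DNA methylation through replication, was lower on both peptide arrays while still well above the limit of detection. The DNMT1 signal was 1424 ± 142.5 on the control array, 154.3 ± 18.3 with BP5 and 203.1 ± 21.6 with BSP-II. It stood at 3.14 and 5.54 times the dimmest detected probe on the peptide arrays. The control array was high and both peptide arrays were low, with BSP-II above BP5 by slightly more than their spot errors. The scaled signals were 6.47-fold lower with BP5 (-2.69 ± 0.22) and 4.24-fold lower with BSP-II (-2.08 ± 0.21). Before subtraction its spot read 1647, 259 and 330, or 6.36-fold and 4.99-fold lower.

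CHAF1B, the CAF-1 subunit, gave nearly the same signal on both peptide arrays. Its processed signal was 680.0 ± 68.3 on the control array, 82.3 ± 12.8 with BP5 and 85.2 ± 11.2 with BSP-II. The peptide values overlapped within their spot errors, and both lay below the control value. CHAF1B stood at 1.68 times the dimmest detected probe with BP5 and 2.32 times with BSP-II, so it too lay near the limit of detection. The scaled CHAF1B signals were 5.80-fold lower with BP5 (-2.54 ± 0.27) and 4.83-fold lower with BSP-II (-2.27 ± 0.24). Its spot read 763, 181 and 181.5 before subtraction, 4.22-fold and 4.20-fold lower on the peptide arrays. Of the 3 genes it had the smallest raw difference, and no negative control spot reached it on any array.

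**Figure D1:**
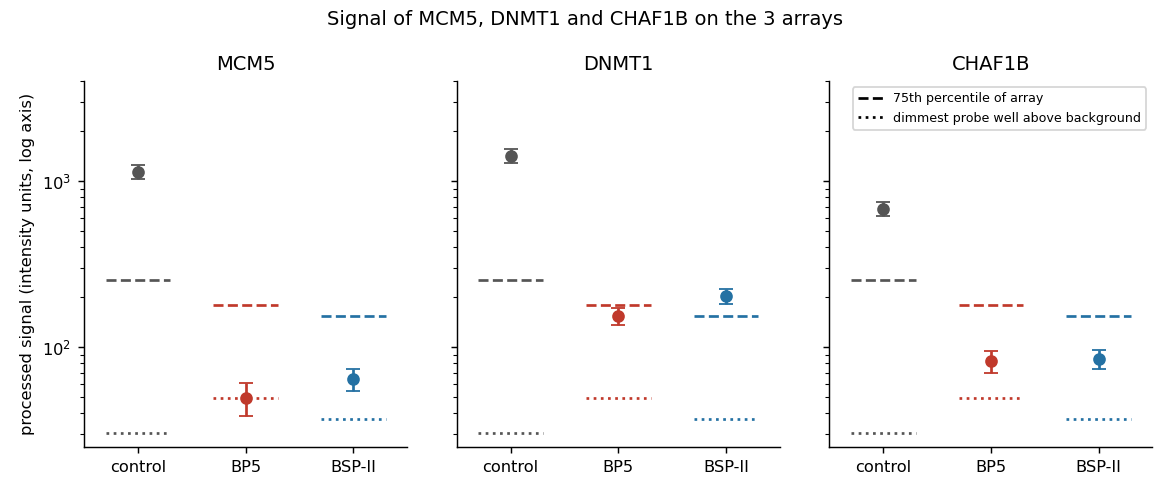
Processed signal (intensity units, log axis) of MCM5, DNMT1 and CHAF1B on the control, BP5 and BSP-II arrays, 1 spot each, with the scanner software's error as bars. Dashed lines mark the 75th percentile of each array (254.8, 178.7 and 154.1) and dotted lines the dimmest probe well above background; MCM5 lies on the dotted line of the BP5 array.

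The same 3 probes are in the authors' deposited table of log2 values, whose 3 columns share a median of 7.75. In the authors' deposited table MCM5 stands at 9.65 for the control, 5.64 for BP5 and 6.25 for BSP-II. For DNMT1 the authors' deposited table has 9.98, 7.33 and 7.95 in the same order. For CHAF1B the authors' deposited table gives 8.92, 6.39 and 6.66. Each gene is highest in the control column and lowest in the BP5 column.

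Few other genes were as low. At least 2-fold lower were 97 of 2578 genes with BP5 (3.76%) and 56 of 2615 with BSP-II (2.14%), and 38 of 2560 genes measured on all 3 arrays were lower with both (1.48%). Because the 3 genes were picked by this contrast, nothing is read from their count. With BP5, 75 genes were at least 2-fold higher (2.91%), which makes 43.6% of all genes beyond 2-fold, a share that becomes 57.1% when the percentile is taken over the probes detected on every array. That scaling moves the median ratio of all genes with BP5 by 0.13, from -0.09, and puts MCM5, DNMT1 and CHAF1B at -3.89, -2.57 and -2.41. Counted from the lowest ratio, DNMT1 had rank 5 and CHAF1B rank 8 with BP5, and CHAF1B had rank 5 and DNMT1 rank 7 with BSP-II. These ranks shift with the processing. With BP5 and BSP-II, DNMT1 had ranks 2 and 6 with normexp and 12 and 18 after correction by row and column. CHAF1B had ranks 11 and 7 in both cases.

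Probes of like brightness on the control array give a second frame, which includes probes with no gene name. Of 3914 probes within 2-fold of the MCM5 signal on that array, 1 had a ratio as low with BP5 and 1 with BSP-II, and 3 and 0 of them were no longer well above background. Of 3745 probes around DNMT1, 16 (0.427%) and 25 (0.668%) were as low. Of 4266 probes around CHAF1B, 21 (0.492%) and 28 (0.656%) were as low. No longer well above background were 3 and 0 of the probes around DNMT1 and 18 and 8 of those around CHAF1B. Such lost probes stay in the totals but were not counted as low, so the shares may be too small. Among the probes around MCM5 the median ratio was -0.17 with BP5 and -0.09 with BSP-II, and the lowest 1% lay below -2.11 and -1.74. These shares use the ratios by which the 3 genes were picked and only describe where they lie in the plot of all named probes.

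**Figure D2:**
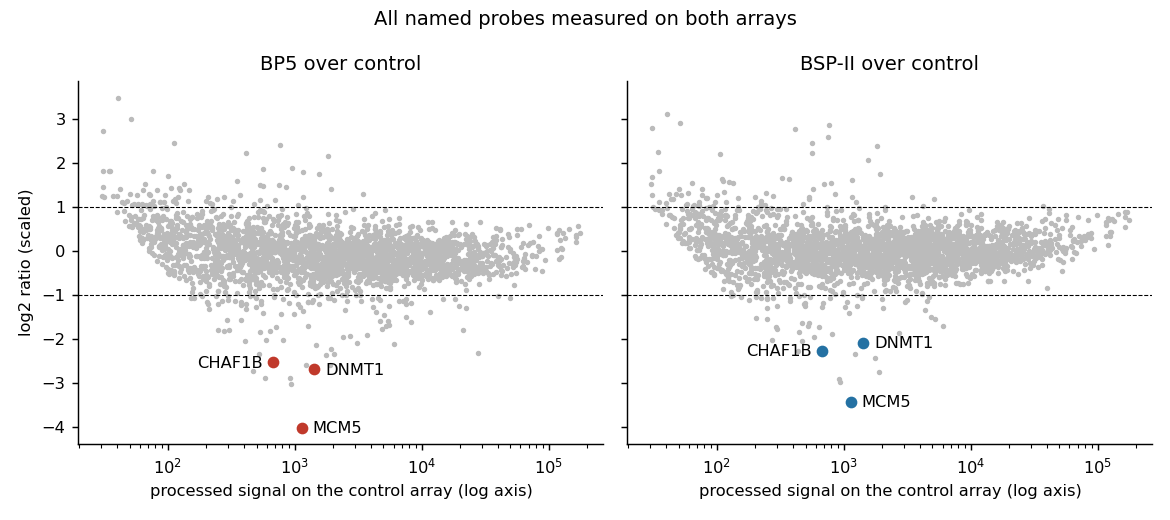
Log2 ratio (scaled) against the processed signal on the control array (log axis) for every named probe measured on both arrays, BP5 at left and BSP-II at right; dashed lines mark 2-fold. MCM5 (-4.02 and -3.43) is the lowest point in both panels, and DNMT1 and CHAF1B lie below -2 in both.

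The spots of the 3 genes lie in different areas of the array. MCM5 is in row 453 and column 79, DNMT1 in row 291 and column 85, the last column, and CHAF1B in row 306 and column 14. Each was compared with the probes within 5 rows and 5 columns that were well above background on both arrays, which are spots of other transcripts and no replicates. Around MCM5, 43 such probes had a median log2 ratio of -0.25 with BP5 (from -1.36 to 0.90), and 47 had -0.20 with BSP-II (from -1.32 to 1.00). Around DNMT1, 28 probes had a median of -0.28 with BP5 (from -1.19 to 0.95), and 27 had -0.25 with BSP-II (from -1.15 to 0.77). Around CHAF1B, 49 probes had -0.30 with BP5 (from -1.40 to 1.72) and 49 had -0.15 with BSP-II (from -0.86 to 1.29).

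No neighbouring probe was as low as the gene it surrounds, with either peptide. The windows themselves leaned low against the medians of -0.04 and 0.04 over all probes measured with BP5 and BSP-II. After subtraction of the neighbours' median, MCM5 stood at -3.77 and -3.23, DNMT1 at -2.42 and -1.83, and CHAF1B at -2.24 and -2.12 with BP5 and BSP-II. Each remained more than 2-fold lower. MCM5 was then second lowest with BSP-II, behind SIKE1. The last column of the array, which holds DNMT1, had a median of -0.32 with BP5 (118 probes) and -0.12 with BSP-II (127 probes), and DNMT1 was its lowest probe with both. MCM5 was the lowest probe of its column (184 and 185 probes) with both peptides, and CHAF1B was second of 170 with BP5 and lowest of 183 with BSP-II. The genes were picked for low ratios, so their ranks among neighbours and in columns follow from the pick.

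The background under each spot was like that of the spots around it. The local background at MCM5 was 41, 45 and 53 on the control, BP5 and BSP-II arrays, against medians of 44.0, 47.5 and 53.0 among the probes around it. At DNMT1 it was 45, 60 and 53.5, and at CHAF1B 41, 53.5 and 54, within the range of the surrounding probes in each case. None of the spots was saturated or carried an outlier mark.

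**Figure D3:**
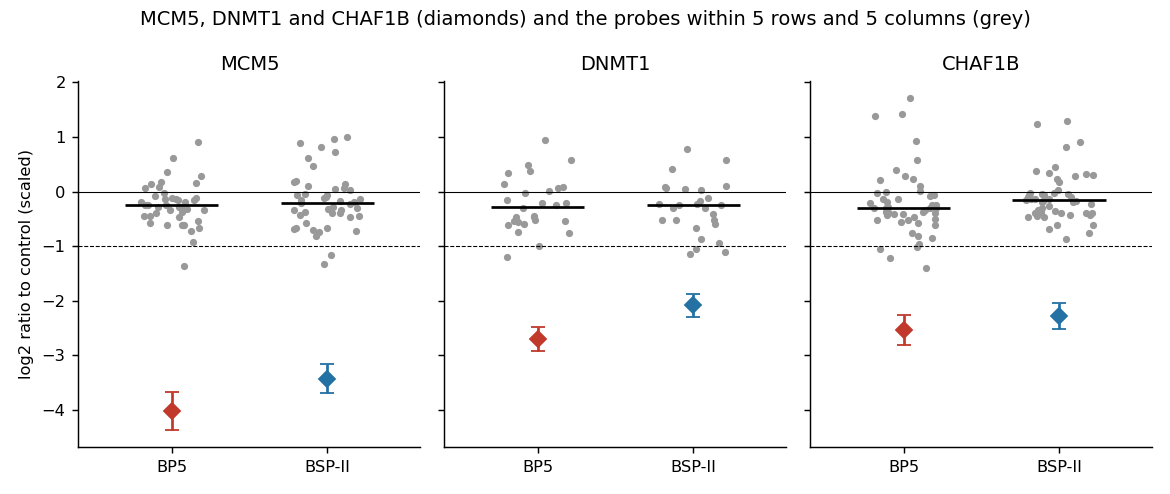
Log2 ratio to the control (scaled) of MCM5, DNMT1 and CHAF1B (diamonds, bars are the scanner software's error) and of the probes within 5 rows and 5 columns of each (grey points, line at their median), for BP5 and BSP-II; the dashed line marks 2-fold lower. Every diamond lies below all of the grey points around it, for genes that were picked by their low ratios.

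MCM5 stood apart from the ring partners that could be measured. MCM2 read 14405, 7999 and 8657 on the control, BP5 and BSP-II arrays, for log2 ratios of -0.34 ± 0.20 and -0.01 ± 0.20. MCM3 read 794.6, 718.8 and 699.0, for 0.37 ± 0.21 and 0.54 ± 0.20. MCM6 read 324.1, 154.0 and 144.1, for -0.56 ± 0.23 and -0.44 ± 0.22. None of these partners was past 2-fold, and the sign of MCM2 turns with normexp (0.05 with BP5 and 0.30 with BSP-II).

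Within the same arrays the difference in log2 ratio, MCM5 minus MCM2, was -3.68 ± 0.41 with BP5 and -3.42 ± 0.33 with BSP-II. MCM5 minus MCM3 was -4.38 ± 0.41 and -3.97 ± 0.33. MCM5 minus MCM6 was -3.46 ± 0.42 and -2.98 ± 0.34. A constant scaling of an array cancels in such a difference, and over 9 other ways of processing the smallest of them was -1.93 (MCM6 with BSP-II). The ± is the software's error of the spots, nearly a fixed share of a bright signal, and does not cover the cultures. MCM5 was picked for being low on both arrays and these partners were not, so the gap describes the pick and supports nothing further.

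The other measured genes of the helicase list, of whose 14 genes 7 have a named probe, were not past 2-fold. CDC45, which joins the MCM ring in the active helicase, had ratios of -0.50 ± 0.20 and -0.70 ± 0.20 with BP5 and BSP-II. GINS2, of the GINS complex that joins with it, had 0.34 ± 0.21 and 0.33 ± 0.21. Of 7 measured genes of the helicase list only MCM5 was past 2-fold with either peptide, and the median of the other 6 was -0.16 with BP5 and 0.11 with BSP-II, against -0.09 and 0.01 over all genes. The list for loading of the ring, with 6 of its 12 genes on named probes, showed no gene past 2-fold either. Its 6 measured genes had medians of -0.33 and -0.28. By the mean of both ratios they ran from GMNN (-0.57 and -0.29), the inhibitor of licensing, to ORC3 (0.30 and 0.36), a subunit of the origin recognition complex. ORC1 (-0.38 and -0.37) and ORC2 (-0.27 and -0.08) belong to the same complex. Over all genes 3.76% were at least 2-fold lower and 2.91% higher with BP5, and 2.14% and 2.79% with BSP-II. Lists this short would mostly hold no such gene at those shares, so nothing is read from their counts.

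CHAF1B was likewise apart from its complex. CHAF1A, the large subunit of CAF-1, read 2376, 1481 and 1560 on the control, BP5 and BSP-II arrays, with ratios of -0.17 ± 0.20 and 0.12 ± 0.20. RBBP4, the small subunit, which also serves other chromatin complexes, had -0.24 ± 0.20 and 0.01 ± 0.20. The 3 subunits thus split into 1 that was more than 4-fold lower and 2 within their spot error or little beyond it. CHAF1B minus CHAF1A was -2.37 ± 0.34 with BP5 and -2.39 ± 0.31 with BSP-II, and it lay between -2.50 and -1.78 under the other ways of processing. CHAF1B was picked by its ratios, and its distance from the other subunits supports nothing further.

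Among the other histone chaperones NAP1L4 was lowest (-0.34 and -0.42), and RBBP7, a close relative of RBBP4, had 0.31 and 0.17. ASF1A, which hands histones to CAF-1, had 0.09 and 0.24. SSRP1, a subunit of the FACT chaperone, was the 1 gene of this list past 2-fold upward, with BSP-II (1.01 ± 0.20, and 0.82 ± 0.20 with BP5). Over all genes 2.79% were at least 2-fold higher with BSP-II, and nothing is read from this count. SSRP1 was no longer past 2-fold after subtraction of its neighbours (0.59 and 0.59) or correction by row and column (0.64 and 0.65). With normexp it was past 2-fold with both peptides (1.14 with BP5 and 1.27 with BSP-II). The 9 genes of this list other than CHAF1B had medians of 0.02 and 0.12.

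DNMT1 and the de novo methyltransferase DNMT3B had ratios of opposite sign. DNMT3B read 2121, 2422 and 2464 on the control, BP5 and BSP-II arrays, for log2 ratios of 0.70 ± 0.20 and 0.94 ± 0.20. It was not past 2-fold on this scale, and with normexp it was (1.04 and 1.28). DNMT1 minus DNMT3B was -3.40 ± 0.30 and -3.03 ± 0.29, and no way of processing brought it above -2.52. DNMT1 was picked by its own ratios, so this difference too only describes the pick. DNMT3A, the other de novo enzyme, stayed below the detection call on every array, and no ratio can be given.

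USP7, a deubiquitinase known in human cells to bind and stabilise DNMT1, had unlike signals on the peptide arrays. Its signal was 8254 on the control array, 1898 with BP5 and 5332 with BSP-II. The ratio was -1.61 ± 0.20 with BP5 and 0.09 ± 0.20 with BSP-II, and BP5 over BSP-II was -1.70 ± 0.20. The probes around USP7, in row 14 and column 11, had medians of -0.99 with BP5, 0.04 with BSP-II and -1.28 for BP5 over BSP-II. After their subtraction USP7 stood at -0.62, 0.05 and -0.43, while correction by row and column left it at -1.63, -0.19 and -1.44. MBD3, a subunit of the NuRD complex, had 0.73 and 0.51 but -0.01 and -0.12 with normexp, on signals of 62.1, 72.3 and 53.4. The base excision glycosylases MBD4 (-0.56 and -0.13) and TDG (-0.40 and -0.24) were not past 2-fold. Of 7 measured genes of the methylation list, DNMT1 and USP7 were past 2-fold with BP5 and DNMT1 with BSP-II. Over all genes 3.76% were at least 2-fold lower with BP5 and 2.14% with BSP-II. DNMT1 was picked by these ratios, and nothing is read from the count.

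**Figure D4:**
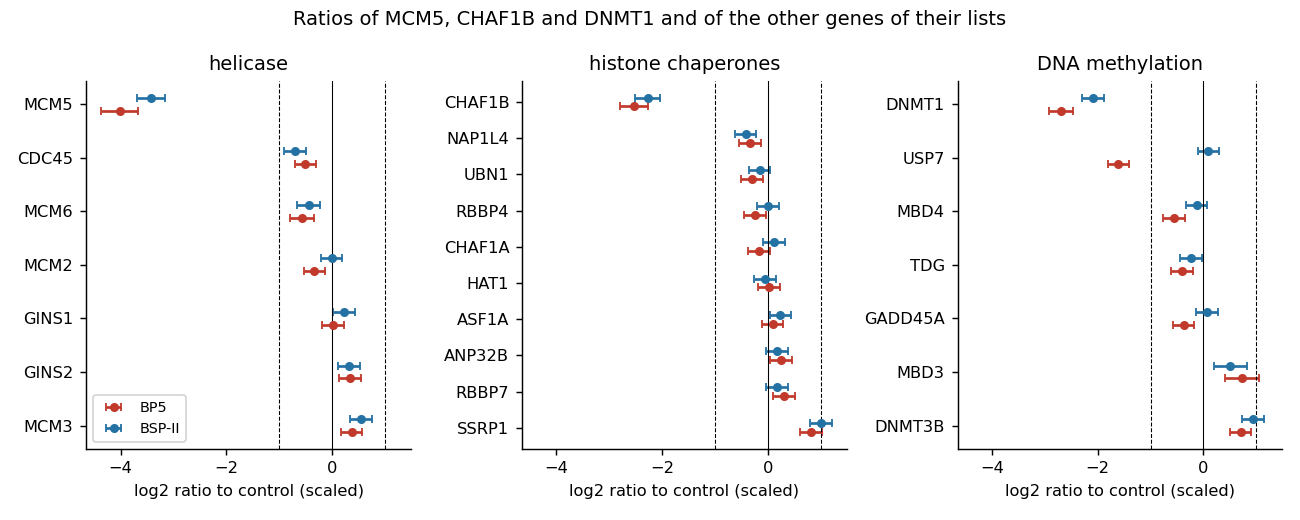
Log2 ratio to the control (scaled, x axis) of the measured genes of the helicase, histone chaperone and DNA methylation lists, red for BP5 and blue for BSP-II, 1 array each, with the scanner software's error as bars and dashed lines at 2-fold. MCM5, CHAF1B and DNMT1 lie left of -2, and apart from USP7 with BP5 and SSRP1 with BSP-II the other genes lie between the dashed lines.

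The measured genes of the machinery that follows the helicase gave no such ratio. Of 12 measured genes for polymerases, primase, clamp loader and single-strand binding, 0 were past 2-fold with either peptide, and their medians were -0.04 and 0.10. The count is near the shares over all genes (3.76% lower and 2.91% higher with BP5, 2.14% and 2.79% with BSP-II), and nothing is read from it. The lowest were PRIM2, the large primase subunit (-0.58 ± 0.25 and -0.90 ± 0.26), and RFC1, the large subunit of the clamp loader (-0.68 ± 0.20 and -0.78 ± 0.20). The highest by the mean of both ratios were RPA2, of the single-strand binding complex (0.15 and 0.38), and POLD3, of polymerase delta (0.35 and 0.45). Of the 25 genes of this list 12 have a named probe, and the clamp itself, PCNA, is among those without one.

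Of 5 measured fork protection genes, TIPIN, which steadies the paused fork, was past 2-fold, and upward. Its signal was 416.5 on the control array, 1372 with BP5 and 1739 with BSP-II, with ratios of 2.23 ± 0.21 and 2.79 ± 0.21. Its spot lies in column 1, where the median ratio of all probes was 1.46 with BP5 and 1.58 with BSP-II, so most spots of that edge were high. The probes within 5 rows and 5 columns of TIPIN had medians of 0.21 and 0.22. TIPIN stood at 2.02 and 2.57 after their subtraction and at 2.25 and 2.64 after correction by row and column. Both corrections pool column 1 with the columns beside it, so neither takes out the median of column 1 alone. The part of that edge in the TIPIN ratios was not tested. The topoisomerases TOP2A (-0.39 and -0.43) and TOP1 (-0.28 and -0.30) and the checkpoint kinase CHEK1 (-0.12 and 0.33) were not past 2-fold. Over all genes 2.91% were at least 2-fold higher with BP5 and 2.79% with BSP-II, and nothing is read from the count in this list.

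The measured genes of nucleotide supply (7 of 14 listed) and of entry into S phase (11 of 25 listed) were not past 2-fold. Of 7 measured genes of nucleotide supply, 0 were past 2-fold, among them GART (-0.19 and -0.13), PPAT (0.21 and 0.42) and RRM1, the large subunit of ribonucleotide reductase (0.59 and 0.27). Of 11 measured E2F and G1/S genes, 0 were past 2-fold, with medians of -0.12 and -0.15. CCND1 (-0.60 and -0.31), a D-type cyclin, and SKP2 (-0.47 and -0.38), which marks cell cycle inhibitors for destruction, were lowest. By the mean of both ratios CDK6 (0.28 and -0.15) and CCNA2, the S phase cyclin (0.07 and 0.18), were highest. E2F1 itself had -0.04 ± 0.22 and -0.20 ± 0.22. Both counts of 0 are near the shares over all genes (3.76% lower and 2.91% higher with BP5, 2.14% and 2.79% with BSP-II), and nothing is read from them.

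Over all 8 lists 66 of 140 listed genes had a named probe and 65 were measured. Of these, 4 were at least 2-fold lower with BP5 (MCM5, DNMT1, CHAF1B and USP7) and 3 with BSP-II (MCM5, DNMT1 and CHAF1B). Over all genes the shares were 3.76% and 2.14%, and nothing is read from that comparison, since 3 of the genes were picked by these ratios. With BP5 1 gene of the lists (TIPIN) was at least 2-fold higher and with BSP-II 2 (TIPIN and SSRP1), where 2.91% and 2.79% of all genes were. TIPIN lies in column 1, where most spots were high, and nothing is read from these counts. The weakest ratio inside the threshold on both arrays was that of DNMT1 with BSP-II (-2.08), and the nearest genes outside were RFC1 (-0.68 and -0.78), PRIM2 (-0.58 and -0.90) and CDC45 (-0.50 and -0.70).

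The peptides can also be set against each other, in 1 scan and without the control, although their doses differ, and dose cannot be told apart from peptide. None of the 3 genes was past 2-fold. The log2 ratio of BP5 over BSP-II was -0.59 ± 0.39 for MCM5, -0.61 ± 0.23 for DNMT1 and -0.26 ± 0.29 for CHAF1B, against a median of -0.11 over 2569 genes. At least 2-fold lower with BP5 than with BSP-II were 38 genes (1.48%), and 3 were at least 2-fold higher (0.117%). MCM5 and DNMT1 ranked 144th and 124th from the lowest and CHAF1B 739th. With the percentile over the probes detected on every array the values were -0.47, -0.49 and -0.15, with the median of all genes at 0.01 and 8 genes higher against 32 lower (3 and 38 as reported).

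The genes most like each of the 3 were sought by Euclidean distance over both log2 ratios to the control, on 3 arrays that share that control, among 2560 genes. Nearest to MCM5 were SIKE1 (-3.03 and -2.97, distance 1.08), CASC4 (-2.60 and -2.74, distance 1.58) and POP4 (-2.58 and -2.34, distance 1.80), so MCM5 had no close neighbour. Nearest to DNMT1 were STBD1 (-2.73 and -2.06, distance 0.046), MYLIP (-2.89 and -1.95, distance 0.23) and CHAF1B (distance 0.25). Nearest to CHAF1B were POP4 (distance 0.081), DNMT1 and STBD1 (distance 0.29). The distances from DNMT1 and CHAF1B are of the size of the spot errors (0.35 and 0.26 for STBD1, 0.33 and 0.23 for MYLIP). The order of these genes is therefore not resolved. With normexp STBD1 stood at -1.55 and -1.26 and DNMT1 at -2.08 and -1.51. STBD1, a glycogen-binding protein, read 49.95 with BP5 and 68.8 with BSP-II and so also lay near the limit of detection. MYLIP read 55.6 with BP5, where that limit was 49.1, and 91.6 with BSP-II. The weakest ratios of the 3 genes were that of CHAF1B with BP5 (-2.54) and that of DNMT1 with BSP-II (-2.08). Besides the 3 genes, only SIKE1, CASC4 and POP4 were at least as low as both. STBD1 missed the second (-2.06 ± 0.26) by less than its spot error.

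Normexp background correction, which adds an offset of 50 to every spot, moved the ratios of the 3 genes most. Plain subtraction of the local background moved DNMT1 by less than its spot error (to -2.63 and -1.98 with BP5 and BSP-II). Over 9 other ways of processing, all 54 ratios to the control stayed more than 2-fold lower, between -4.03 and -1.49. The ratio of MCM5 with BP5 ranged from -4.03 to -2.51 and with BSP-II from -3.44 to -2.17. DNMT1 ranged from -2.66 to -2.08 and from -2.07 to -1.51, and CHAF1B from -2.54 to -1.64 and from -2.28 to -1.49. MCM5 stayed the lowest of the 3 under every one of them, while its fold is the least certain, since its peptide signals lie closest to background.

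**Figure D5:**
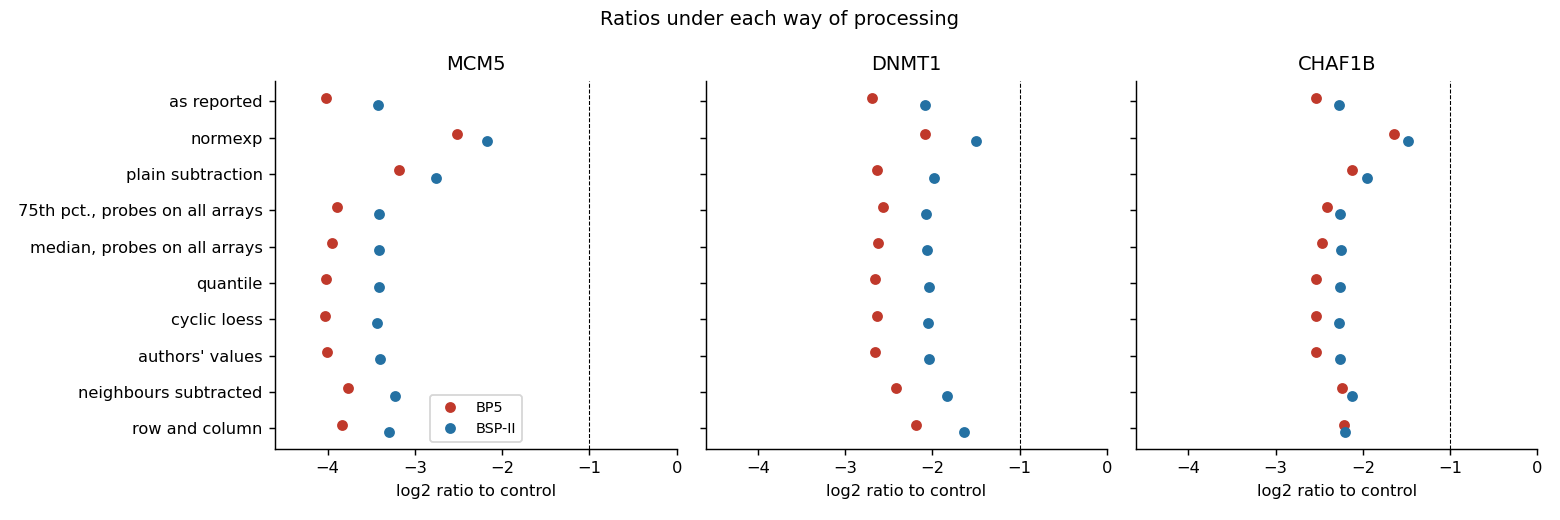
Log2 ratio to the control (x axis) of MCM5, DNMT1 and CHAF1B with BP5 (red) and BSP-II (blue) as reported and under 9 other ways of processing (rows); the dashed line marks 2-fold lower. All points lie left of the dashed line, and normexp background correction brings every gene closest to it.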

How the data were processed

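Cy3-labelled cRNA from total RNA was hybridised to 3 arrays, per the labels. The spot intensities were deposited by the authors as Agilent Feature Extraction 10.5.1.1 output, background-subtracted and spatially detrended with dim spots at a floor, per the file headers and the submitters' processing notes; other flags (0 or 1) mark outliers and spots well above background, per the file headers. The authors' deposited log2 values (20085 probes) have sorted columns that differ by a median of 0.001; the sources used here do not give their normalization. From 43451 spots, 1417 control spots and 153 probes with an outlier flag were left out. The measure was the processed signal over the 75th percentile of its array, as log2. RefSeq accessions, looked up without version in the GRCg7b gene table, named 3955 of 4893 such probes; 37926 probes stay unnamed, and no coordinates are given because the grid is of galGal3. Ratios use unsaturated probes that both arrays called well above background; a gene counts at 2-fold with all its probes of 1 sign. Spot errors were combined as relative errors in quadrature. The files hold median and no mean spot signals, so normexp (offset 50) used the medians. The members and the 13 gene lists were chosen with earlier results of these data known, and lists were matched by symbol. Genes were named by a rule: the 2 highest and 2 lowest per pathway list and the 3 nearest to each member. The rule also took those just outside 2-fold and the detected B cell markers. MCM2, MCM6, CHAF1A, RBBP4, ASF1A, MBD4, TDG, E2F1, DNMT3A, TUBB1 and TAL1 were added after their values were seen. Also outside the rule, CD3D and AVD were named because they made up most of a marker sum. PAX5, EBF1, CD79B, SPI1 and CD40 were named, outside the rule too, as the B cell markers not detected. A gene that this rule picks is not reported here. Tools were Python 3.11.15, pandas 2.3.3, R 4.3.3 and limma 3.58.1, and the ratio step was tested on simulated data.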

Additional observations from a re-analysis of the deposited data

How the results depend on the processing

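The 54 ratios of MCM5, DNMT1 and CHAF1B to the control under 9 alternatives all stayed past 2-fold lower, 16 of them moving by more than the spot error and 0 changing sign. Values below are with BP5 and then BSP-II. Normexp background correction gave -2.51 and -2.17 for MCM5, -2.08 and -1.51 for DNMT1 and -1.64 and -1.49 for CHAF1B. Plain subtraction of the local background gave -3.18 and -2.76 for MCM5 and -2.12 and -1.95 for CHAF1B. Subtraction of the neighbouring probes gave -2.42 and -1.83 for DNMT1 and -2.24 for CHAF1B with BP5. The row and column correction gave -2.19 and -1.64 for DNMT1 and -2.21 for CHAF1B with BP5. The cause of these moves was not tested.

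Counts over all genes were less stable. With normexp 41 genes were higher and 34 lower with BP5, 64 higher and 19 lower with BSP-II, and 1 higher with BP5 than with BSP-II. With no filter on dim probes the counts were 760 higher and 178 lower with BP5 and 740 and 127 with BSP-II. For BP5 over BSP-II they were then 50 and 92. Without the filter, probes at the floor of both arrays differ through floor and scaling alone. The floor was 6.06, 9.85 and 7.36 on the control, BP5 and BSP-II arrays. With the scaling, this puts such probes past 2-fold higher against the control with either peptide, but not in BP5 over BSP-II. Subtraction of the neighbours left 53 lower with BP5, and 5 higher and 16 lower for BP5 over BSP-II. For BP5 over BSP-II, 8 were higher with the percentile over the probes detected on every array, 5 with their median, 6 with the row and column correction (24 lower) and 1 with plain subtraction. No paired analysis was possible because each group had 1 array. Signal over background limits MCM5 most, since its peptide spots lie nearest the detection limit, and CHAF1B next. Each value rests on 1 probe, 1 array and 1 scan per group.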
